A study of Homo sapiens with 3 samples.

Results

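CPA4, a metallocarboxypeptidase gene on chromosome band 7q32, is described here together with 5 neighbouring genes, CPA5, CPA1, CEP41, MEST and COPG2. They make up 6 of the 57736 gene rows of the count table, each found once by its current symbol. CPA4 was chosen because its RNA level was higher in HDAC2 knockdown cells than in WT cells and because it is known from other cells as a gene induced by deacetylase inhibition. The other 5 were taken for their position beside it. The knockdown-against-WT values of the 6 genes are therefore given as a description, without a test.

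RNA was sequenced from TOV21G, a human cell line from a clear cell carcinoma of the ovary that carries a mutated ARID1A gene. There were 2 libraries of HDAC2 knockdown cells, transduced with lentivirus encoding a short hairpin RNA against HDAC2, and 1 library of WT cells. Each knockdown library carried its own hairpin, called shRNA 1 and shRNA 2, and ARID1A was mutated in every library. The labels name no control virus for the WT cells, so depletion of HDAC2 and transduction cannot be told apart. With a single WT library and 1 library per hairpin, the p-values given for other genes rest on how far the shRNA 1 and shRNA 2 libraries differ, which may be technical, and assume that WT varies in the same way.

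CPA4 encodes a secreted zinc carboxypeptidase of the M14 family, which removes hydrophobic amino acids from the C-terminus of peptides. It was first found as a transcript induced by the deacetylase inhibitor butyrate in prostate cancer cells, along a path that involves p21, the product of CDKN1A. CPA1 encodes a digestive enzyme of the exocrine pancreas, and CPA5 is a related family member. MEST, an alpha/beta hydrolase-fold protein, is expressed from the paternal copy in many tissues and gives the region its place among imprinted domains, in which CPA4 has been reported as maternally expressed in some fetal tissues. CEP41 encodes a centrosomal and ciliary protein needed for tubulin glutamylation and mutated in Joubert syndrome. COPG2 encodes a gamma subunit of COPI, the coat of vesicles that return proteins from the Golgi to the endoplasmic reticulum.

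In GENCODE 29 (GRCh38; the table itself gives no coordinates) the 6 genes stand in the order CPA4, CPA5, CPA1, CEP41, MEST, COPG2. CPA4 (ENSG00000128510) lies at chr7:130293134-130324180 on the plus strand. CPA5 (ENSG00000158525) lies at chr7:130344816-130368730 and CPA1 (ENSG00000091704) at chr7:130380339-130388114, both on the plus strand, with start sites 51.7 and 87.2 kb beyond that of CPA4. CEP41 (ENSG00000106477) lies at chr7:130393771-130442433 on the minus strand. MEST (ENSG00000106484) lies at chr7:130486171-130506465 on the plus strand and COPG2 (ENSG00000158623) at chr7:130506238-130668748 on the minus strand. All 6 are annotated as protein coding. The last exons of MEST and COPG2 overlap tail to tail over 228 bases, 4.8% of the exon bases of MEST and 5.5% of those of COPG2. Whether the counting used strand is not stated, so reads in that overlap cannot be assigned to either gene. Of the 75-base sequences in their transcripts, CPA4, CPA5, CPA1 and CEP41 shared 0% with another annotated gene on either strand. MEST shared 0.3% in the same sense and 15.1% in the antisense direction, and COPG2 0.7% in the same sense and 5.3% in the antisense direction.

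The 250 bases before the start site are shown for CPA4, the member with the higher knockdown level, and for the fourth of 5 listed start sites of MEST, as an example of a start in a CpG-rich sequence within the same region. Both are RefSeq sequences (GRCh38.p14, plus strand, 5′ to 3′), at chr7:130292911-130293160 for CPA4 and chr7:130491808-130492057 for MEST, and 5 of the 6 members had an entry in that table. Capitals mark matches on either strand to 5 motifs, chosen after the sequences were seen: the TATA box (TATAAA), the AP-1 site (TGANTCA), the GC box (GGGCGG), the CCAAT box (CCAAT) and the E-box (CACGTG).
CPA4: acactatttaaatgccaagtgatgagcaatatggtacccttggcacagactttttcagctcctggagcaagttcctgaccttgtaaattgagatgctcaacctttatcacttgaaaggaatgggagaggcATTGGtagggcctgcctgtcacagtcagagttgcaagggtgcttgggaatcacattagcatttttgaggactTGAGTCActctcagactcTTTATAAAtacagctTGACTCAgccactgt
MEST: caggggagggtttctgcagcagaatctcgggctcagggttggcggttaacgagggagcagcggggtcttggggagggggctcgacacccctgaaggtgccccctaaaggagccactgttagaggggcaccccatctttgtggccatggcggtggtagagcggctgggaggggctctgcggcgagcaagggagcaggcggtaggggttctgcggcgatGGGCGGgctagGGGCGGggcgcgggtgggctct

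The CPA4 stretch held 0 CpG dinucleotides and had a GC content of 44.4%, and 20.8% of the 35116 RefSeq start sites had a lower one. The median start site held 11 CpG dinucleotides and had a GC content of 58.0%. It held the AP-1 letters at 2 places, as TGAGTCA from 48 to 42 and as TGACTCA from 15 to 9 bases before the start. At least 1 such match was found at 6.6% of all start sites and 2 or more at 0.4%. TATA box letters stood from 28 to 23 bases before the start and, on the other strand and overlapping these, from 30 to 25. They were found at 10.7% of all start sites. CCAAT box letters on the minus strand stood from 120 to 116 bases before the start, a motif held by 11240 of the 35116 start sites. GENCODE 29 places the CPA4 start 27 bases further upstream, so by that annotation the nearer AP-1 match lies inside the first exon and both TATA box matches span the start. The MEST stretch held 16 CpG dinucleotides and 2 GC boxes and had a GC content of 68.4%. Of all start sites, 24.34% had 2 or more GC boxes. These matches are letters in a window and not binding sites shown to be in use.

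Before the members, the knockdown and the cell type were checked in the same libraries. HDAC2 had 33.4 CPM with shRNA 1 and 51.5 CPM with shRNA 2, against 105 CPM in WT (CPM, each count divided by the TMM-scaled size of its library). The libraries held 10138479 to 11398791 counts. The epithelial genes KRT8 and KRT18 and the clear cell markers PAX8 and ANXA4 were well counted in every library, whereas the marker NAPSA had 4, 1 and 1 counts with shRNA 1, shRNA 2 and in WT, and the epithelial cadherin gene CDH1 had 12, 12 and 6. In the same order, the epithelial marker KRT7 was also low, at 19, 14 and 20 counts, and EPCAM had 86, 122 and 69. Of 7 exocrine pancreas markers, 5 were at 0 in every library, and their summed level was 0.348 and 0.177 CPM in the knockdown libraries, against 0.2 CPM in WT. Of 6 mast cell markers, 5 were at 0 in every library. Of 5 leukocyte markers 1 was at 0, and the list summed to 2.35 and 0.971 CPM in the knockdown libraries, against 3.51 CPM in WT.

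CPA4 was higher in both knockdown libraries. It had 131 counts with shRNA 1 and 71 counts with shRNA 2, against 17 counts in WT, or 11.4 and 6.27 CPM against 1.7 CPM. Exact 95% Poisson intervals ran from 9.54 to 13.5 CPM for shRNA 1, from 4.9 to 7.91 CPM for shRNA 2 and from 0.992 to 2.73 CPM for WT. These intervals cover counting error only, and the reads carry no molecular identifiers.

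The mean was 8.84 ± 3.64 CPM in knockdown cells (SD, n = 2), against 1.7 CPM in WT (n = 1), a 5.17-fold difference and a log2 change of 2.37 ± 0.43 (SE, edgeR's quasi-likelihood fit over all genes). By hairpin the log2 change was 2.62 with shRNA 1 and 1.77 with shRNA 2. As ratios of the scaled counts, shRNA 1 stood at 6.7 times WT (exact 95% interval 4.03 to 11.9). For shRNA 2 the ratio to WT was 3.68 (2.15 to 6.67). Such intervals cover counting error between single libraries only. CPA4 was chosen for its higher knockdown level, so they are not a test of that difference. The shRNA 1 library was in turn 1.82 times the shRNA 2 library (1.35 to 2.47), and it was also the library with the lower HDAC2 level. With 1 library per hairpin no further statement about that order is possible. Of the 14524 genes that passed the filter on low counts, 90 had a higher log2 change than CPA4.

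**Figure D1:**
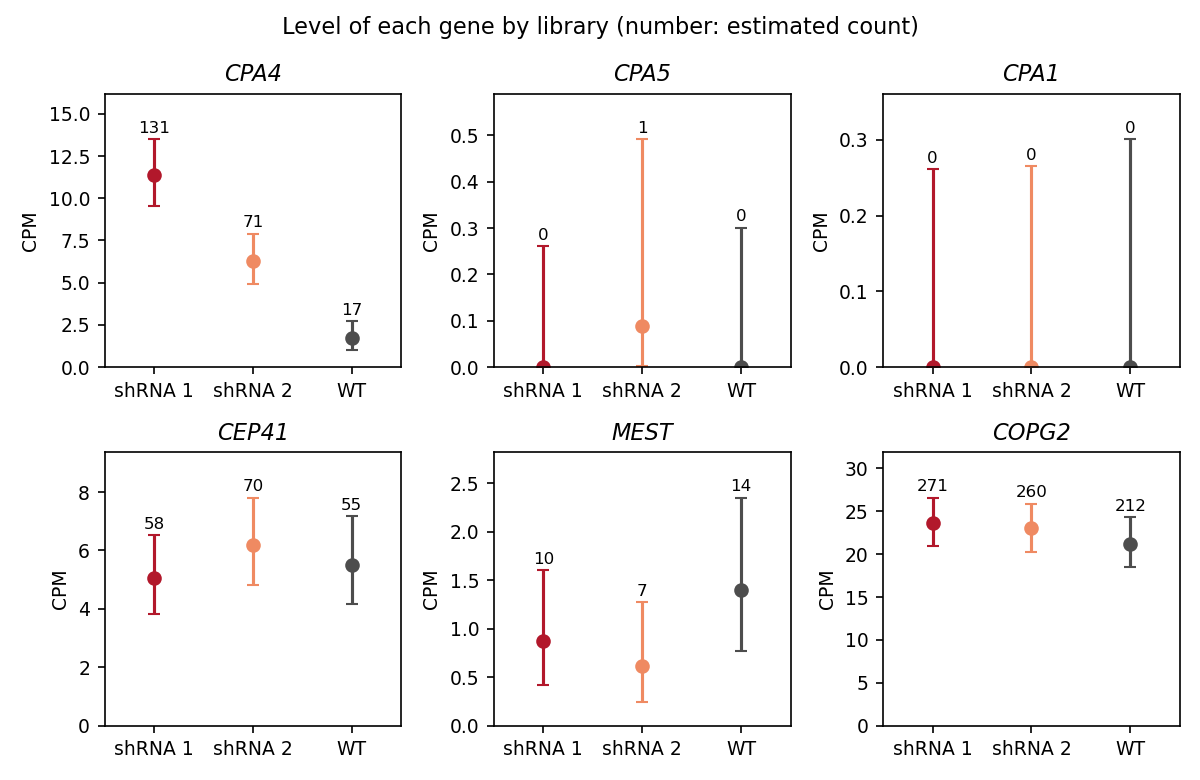
Level of each of the 6 genes in CPM (linear axes from 0, a scale of its own for each gene) in the shRNA 1, shRNA 2 and WT libraries, with exact 95% Poisson intervals as bars (for 0 counts the bar ends at the limit of 3 counts) and the estimated count as a number. The CPA4 points lie at 11.4, 6.27 and 1.7 CPM, whereas the bars of CEP41, MEST and COPG2 overlap between libraries, and CPA5 and CPA1 hold at most 1 count.

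The other carboxypeptidase genes of the cluster were close to silent in all libraries. CPA1 had 0 counts in each, which allows up to 0.261 CPM with shRNA 1, 0.265 CPM with shRNA 2 and 0.301 CPM in WT, taking 3 counts as the limit. CPA5 had 0 counts with shRNA 1 and 1 count with shRNA 2, against 0 counts in WT. Neither passed the filter on low counts, and no fold was formed. Levels below that limit could not be seen at this depth, so a difference between such levels was not detectable in either gene.

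CEP41 had 58 counts with shRNA 1 and 70 counts with shRNA 2, against 55 counts in WT, which is 5.05 and 6.18 CPM against 5.51 CPM. WT lay between the hairpin libraries. The log2 change was 0.03 ± 0.33 (SE), with −0.12 for shRNA 1 and 0.16 for shRNA 2. The summed knockdown counts gave 1.02 times WT, with an exact 95% interval from 0.737 to 1.42.

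COPG2, the best counted of the 6, had 271 and 260 counts in the knockdown libraries, against 212 counts in WT, or 23.6 and 23.0 CPM against 21.2 CPM. Both hairpin libraries were slightly above WT, but all counting intervals overlapped. Its log2 change was 0.13 ± 0.21 (SE). The summed knockdown counts stood at 1.1 times WT (0.933 to 1.29).

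MEST was low throughout, with 10 counts with shRNA 1 and 7 counts with shRNA 2, against 14 counts in WT. These were 0.871 and 0.618 CPM against 1.4 CPM, so both hairpin libraries were below WT, with overlapping counting intervals. The log2 change was −0.90 ± 0.74 (SE), and the summed knockdown counts gave 0.532 times WT with an interval from 0.247 to 1.16. MEST passed the filter on low counts through its WT count. Transcripts on the opposite strand cover part of its exons. MESTIT1, which overlaps 10.1% of them, had 0 counts in every library, and an antisense gene without a name (ENSG00000270823), which overlaps 12.6%, had 1 and 2 counts in the knockdown libraries, against 6 counts in WT. COPG2, also on the opposite strand, overlaps 4.8% and had 271 and 260 counts in the knockdown libraries, against 212 counts in WT. The part of these overlapping genes in the MEST values was not tested.

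Per length, as CPM per kb of annotated exon, COPG2 stood highest of the 6 in every library, at 5.7 and 5.55 in the knockdown libraries, against 5.13 in WT. CPA4 followed in the knockdown libraries at 2.88 with shRNA 1 and 1.58 with shRNA 2, against 0.43 in WT. In WT the CPA4 level could not be told from that of CEP41, at 0.438 CPM per kb, since its counting interval ran from 0.251 to 0.689. CEP41 had 0.402 and 0.492 CPM per kb in the knockdown libraries, where the CPA4 intervals ran from 2.41 to 3.42 and from 1.24 to 2. MEST was lower still, at 0.182 and 0.129 CPM per kb in the knockdown libraries, against 0.293 in WT, where its interval of 0.16 to 0.491 overlapped those of CPA4 and CEP41.

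Over all genes, 1121 of the 14524 tested had an adjusted p below 0.05, which is 7.72% (edgeR's quasi-likelihood F test, p-values adjusted by the Benjamini-Hochberg method). The same edgeR test is meant wherever an adjusted p follows, unless another is named. Higher in knockdown were 575 genes, or 3.96%, and lower 546, or 3.76%. With a trend over transcript GC content removed, 225 were higher and 389 lower, and with library size alone 868 were higher and 595 lower (edgeR). Of the 6 members, 4 were tested and CPA4 alone was among these calls. Since CPA4 was chosen from this same comparison, nothing is read from that count. Without adjustment, 3420 of the 14524 genes had a p below 0.05 (edgeR).

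**Figure D2:**
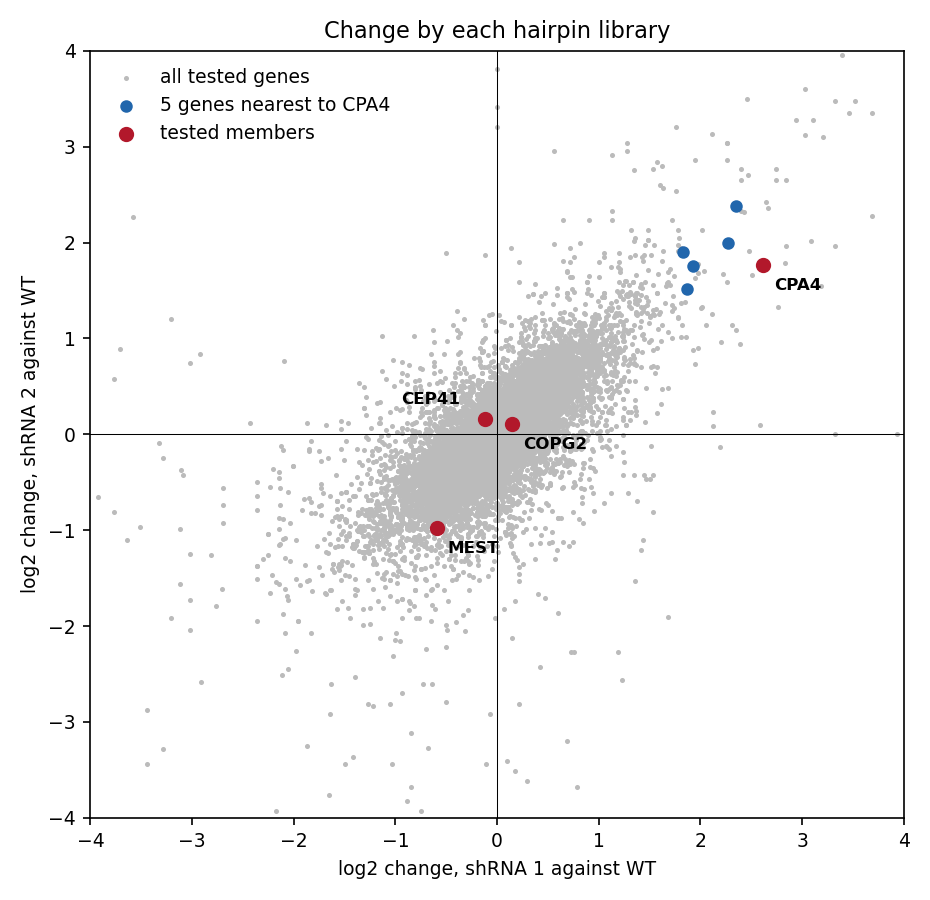
Log2 change of shRNA 1 against WT (horizontal) and of shRNA 2 against WT (vertical) for all tested genes (grey) and the 4 tested members (red). Blue marks the 5 named genes nearest to CPA4 among those with mean counts of 50 or more, with unnamed clones left out. The 43 genes beyond 4 on either axis are not drawn. CPA4 lies at 2.62 and 1.77, below the cloud's diagonal, while CEP41 and COPG2 lie close to 0.

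The 5 named genes whose changes were most like those of CPA4 were found by the distance between the pairs of log2 changes by hairpin. The distance was taken to 11205 other tested genes with mean counts of 50 or more. Unnamed clones among them were passed over, so some may lie nearer than the 5 given. The pairs rest on 3 libraries and share the WT library. PMS2P7 stood nearest at a distance of 0.42, with log2 changes of 2.27 and 2.00, followed by LUZP6 (0.66) and RPL17-C18orf32 (0.69). These 3 have 71.8%, 100% and 90.7% of their 75-base sequences in common with other genes, so their counts are uncertain. ZMAT3, an RNA-binding protein gene induced by p53, had a distance of 0.79, and MALAT1, a nuclear long noncoding RNA, a distance of 0.80. The median distance over the 11205 genes was 3.16, which mainly reflects how far CPA4 itself, at 2.62 and 1.77, lies from no change. A small distance therefore says only that a gene rose strongly in both hairpin libraries.

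Besides the members, 50 genes of the table lie within 1 Mb of either end of the cluster, and 25 of them had 0 counts in every library. The test covered 13, of which 2 rose, 0 fell and 11 stayed short of the threshold, where 7.72% of all genes tested passed. Their median log2 change was 0.08, against 0.01 over all genes tested. At an unadjusted p below 0.05 there were 3 higher and 3 lower (edgeR), where 3420 of the 14524 genes tested passed that level. DESeq2's Wald test called 0 of the 13 in either direction and gave no adjusted p for 7. UBE2H, a ubiquitin-conjugating enzyme gene whose start lies at −340.2 kb from that of CPA4, had 132 and 115 CPM in the knockdown libraries, against 77.0 CPM in WT, with a log2 change of 0.68 ± 0.18 (SE) and an adjusted p of 0.0253 (edgeR). MKLN1, the muskelin gene, had 84.2 and 92.6 CPM, against 56.4 CPM in WT, with a log2 change of 0.65 ± 0.18 (SE) and an adjusted p of 0.0299 (edgeR). After correction for transcript GC content the MKLN1 call was lost (log2 change 0.31, adjusted p = 0.324, edgeR), and DESeq2's Wald test called neither (adjusted p = 0.075 for UBE2H and 0.128 for MKLN1). Over all alternatives the adjusted p of UBE2H ranged from 0.00927 to 0.468 and that of MKLN1 from 0.0122 to 0.468. In both genes the knockdown libraries were above WT.

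Of the genes between UBE2H and CPA4 that were tested, ZC3HC1, a mitotic F-box-like protein gene, had a log2 change of −0.40 ± 0.17 (SE), KLHDC10, a kelch domain gene, 0.36 ± 0.19 (SE), and TMEM209, a nuclear envelope protein gene, 0.02 ± 0.19 (SE). The nearest tested genes on both sides of CPA4, TMEM209 and CEP41, had log2 changes of 0.02 and 0.03, against 2.37 for CPA4. Further away, NRF1, a transcription factor of mitochondrial biogenesis genes, had −0.46 ± 0.21 (SE), STRIP2 −0.24 ± 0.34 (SE) and the podocalyxin gene PODXL −0.14 ± 0.25 (SE). The pseudogene CDC26P1, which shares 100% of its sequence with CDC26 and is uncertain, had −0.66 ± 0.29 (SE), and an unnamed long noncoding RNA (ENSG00000273329) had 0.23 ± 0.30 (SE). Of LINC-PINT, a p53-induced long noncoding RNA, 2 rows were present, and their counts are uncertain too, since the first shares 29.7% and the second 19.7% of its sequence in the same sense with other genes. ENSG00000226380 had 52 and 42 counts in the knockdown libraries, against 18 counts in WT (log2 change 1.19 ± 0.46, SE), and ENSG00000231721 had 26 and 20 counts, against 19 counts in WT (0.08 ± 0.55, SE). MKLN1-AS, which lies antisense to MKLN1 by name and could share reads with it, had 0.22 ± 0.44 (SE).

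**Figure D3:**
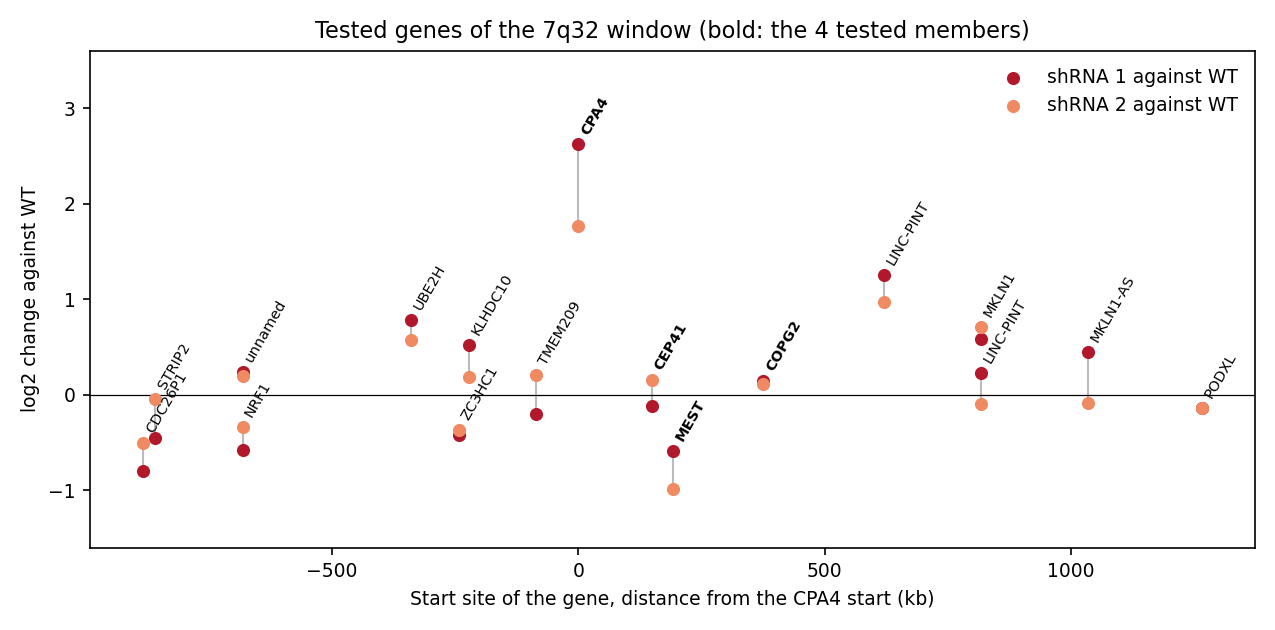
Log2 change against WT by shRNA 1 (dark red) and shRNA 2 (orange) of the tested genes within 1 Mb of the cluster, placed by the distance of their start site from that of CPA4 in kb; grey lines join the 2 hairpins of a gene. CPA4 at 2.62 and 1.77 stands above every other tested gene of the window, the next being 1 of the 2 LINC-PINT rows, and CEP41 and COPG2 lie near 0.

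Of 24 other carboxypeptidase and related genes, inhibitors included, 11 were tested, and 0 rose and 0 fell (edgeR). Among all genes tested 7.72% passed, so that a count of 0 is near the background. The 11 had log2 changes from −0.49 to 0.45 and a median of −0.08. DESeq2's Wald test also called 0 of them and gave no adjusted p for 4. CPD, a carboxypeptidase of the trans-Golgi network, had 206 and 207 CPM in the knockdown libraries, against 151 CPM in WT, a log2 change of 0.45 ± 0.17 (SE). Its unadjusted p was below 0.05, as was that of AGBL5, a tubulin deglutamylase gene, with a log2 change of −0.44 ± 0.17 (SE). These were the 2 of the 11 for which this held, where it held for 3420 of the 14524 genes tested (edgeR). The genes CPE and CPM, which encode a prohormone-processing and a membrane-anchored enzyme, had log2 changes of −0.13 ± 0.19 (SE) and 0.02 ± 0.18 (SE). LXN, the gene of latexin, an inhibitor of CPA4 and related enzymes, had 3.92 and 5.03 CPM in the knockdown libraries, against 4.81 CPM in WT.

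Among the pancreatic-type enzymes named here CPA4 was the only one with more than 2 counts in a library. The 7 other genes of this subfamily looked at, CPA1, CPA3, CPA5, CPA6, CPB1, CPB2 and CPO, a group formed after their values were seen, summed to 3 and 2 counts in the knockdown libraries, against 2 counts in WT. Per length CPA4 ranked 10 of 26 carboxypeptidase and related genes by its mean over the libraries, though its own levels differed widely between libraries. CPE led them at 46.2 and 33.3 CPM per kb in the knockdown libraries, against 43.5 in WT. With shRNA 1 CPA4, at 2.88, stood above LXN at 2.61 and above RARRES1, a retinoid-induced homologue of latexin, at 1.91. With shRNA 2 CPA4, at 1.58, stood below both, at 3.35 for LXN and 1.78 for RARRES1. The CPA4 counting interval held the LXN level with shRNA 1 (2.41 to 3.42) and the RARRES1 level with shRNA 2 (1.24 to 2.0). Those orders were within counting error. In WT CPA4 had 0.43 CPM per kb, near the 0.398 of AGBL3, another deglutamylase gene.

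**Figure D4:**
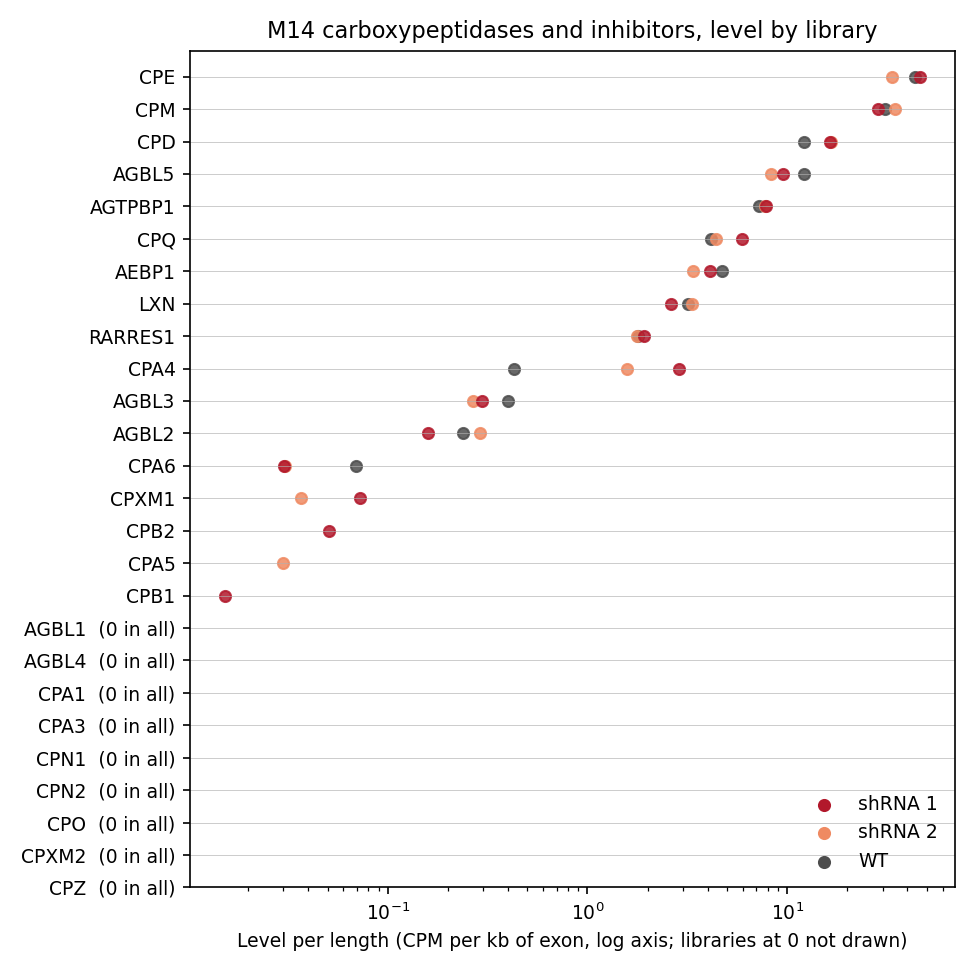
Level per length (CPM per kb of exon, log axis) of 26 carboxypeptidase and related genes, inhibitors included, by library (shRNA 1, shRNA 2, WT). Genes are ordered by mean, and libraries at 0 counts are not drawn. The 3 CPA4 points span 0.43 to 2.88, whereas the points of the genes above it lie close together and the rest of the pancreatic-type genes lie below 0.1.

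Among genes that work with COPG2, all 8 other COPI coat subunits were tested and 0 passed in either direction (edgeR), again beside 7.72% of all genes tested. Their median log2 change was 0.22, beside 0.13 for COPG2. The paralogue COPG1 had 133 CPM with shRNA 1 and 87.2 CPM with shRNA 2, against 135 CPM in WT. DESeq2's Wald test called 0 of the 8 and gave no adjusted p for 1. COPE, at −0.51 ± 0.17 (SE), and ARCN1, at 0.44 ± 0.16 (SE), had an unadjusted p below 0.05 in the edgeR fit. So had 3420 of the 14524 genes tested.

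Of 33 other Joubert syndrome and transition zone genes, the ciliary group to which CEP41 belongs, 32 were tested, with 2 rising, 1 falling and 29 short of the threshold (median log2 change 0.03), a share of calls near the 7.72% over all genes tested. CEP290, a gatekeeper of the ciliary transition zone, rose 1.95-fold (log2 change 0.97 ± 0.28, SE; adjusted p = 0.0414, edgeR) and CPLANE1 1.68-fold (0.75 ± 0.21, SE; adjusted p = 0.0318, edgeR). TMEM107, a transition zone membrane protein gene, fell by 0.93 on the log2 scale (adjusted p = 0.0146, edgeR). With the GC trend removed, CEP290 and CPLANE1 lost their calls (adjusted p = 0.251 and 0.168, edgeR), and CEP290 also with DESeq2 size factors (0.0502) and among genes with mean counts of 50 or more (0.0645). The adjusted p ranged over the alternatives from 0.0174 to 0.473 for CEP290, from 0.0127 to 0.468 for CPLANE1 and from 0.00734 to 0.468 for TMEM107. DESeq2's Wald test gave CPLANE1 an adjusted p of 0.226 and gave none for the other two.

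Of 40 imprinted genes outside 7q32 that were found in the table, 25 were tested, 1 rose and 0 fell. The share of calls over all genes tested was 7.72%. The list had a median log2 change of −0.09, against 0.01 over all genes tested. At an unadjusted p below 0.05 there were 6 higher and 1 lower (edgeR), where 3420 of the 14524 genes tested passed that level. DESeq2's Wald test called 1 of the list higher and 0 lower. TFPI2, a serine protease inhibitor gene, rose 1.8-fold, with 361 and 437 CPM in the knockdown libraries, against 221 CPM in WT (log2 change 0.85 ± 0.18, SE; adjusted p = 0.00576, edgeR). Its adjusted p was 0.0508 with the GC trend removed and ranged from 0.000952 to 0.468 over the alternatives (edgeR). With that trend removed the list held a single call in the other direction, SGCE, the epsilon-sarcoglycan gene, at a log2 change of −0.59 (adjusted p = 0.0455, edgeR), which had −0.16 ± 0.17 (SE) without the correction. PEG10, a retrotransposon-derived imprinted gene on the same chromosome, was the most abundant of the list at 2620 and 2990 CPM in the knockdown libraries, against 3370 CPM in WT, and did not pass. H19 had 18 and 33 counts in the knockdown libraries, against 29 counts in WT.

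CPA4 belongs to the genes known elsewhere as induced by deacetylase inhibitors. Of 14 others of that kind, 11 were tested, with 2 rising, 0 falling and 9 short of the threshold. Over all genes tested 7.72% passed and 3.96% passed as higher, so with 11 genes nothing is read from that count. The median log2 change was 0.30, against 0.01 over all genes tested. CDH1 (12, 12 and 6 counts, log2 change 0.80) passed the filter on low counts through its knockdown counts. The median includes this gene and is not read as a shift of the list. At an unadjusted p below 0.05 there were 3 higher and 0 lower in the list (edgeR), where 3420 of the 14524 genes tested passed that level. DESeq2's Wald test called 1 of the list higher and 0 lower. CDKN1A had 1120 CPM with shRNA 1 and 758 CPM with shRNA 2, against 325 CPM in WT (log2 change 1.53 ± 0.20, SE; adjusted p = 1.67e-04, edgeR), so that CDKN1A and CPA4 were both highest with shRNA 1. RHOB, a small GTPase gene, had 446 and 410 CPM in the knockdown libraries, against 290 CPM in WT (0.56 ± 0.17, SE; adjusted p = 0.046, edgeR). Its call was lost with DESeq2 size factors (adjusted p = 0.0534, edgeR), among genes with mean counts of 50 or more (0.0572) and by DESeq2's Wald test (0.0782), within a range of 0.0102 to 0.468 over the alternatives. TXNIP had 155 CPM with shRNA 1 and 87.9 CPM with shRNA 2, against 119 CPM in WT (0.02 ± 0.23, SE). The gelsolin gene GSN had 82.8 and 66.7 CPM, against 77.5 CPM in WT (−0.05 ± 0.18, SE). Neither gene passed, and in both the WT level lay between those of the hairpin libraries.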

How the data were processed

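The table deposited by the authors holds estimated counts by Ensembl gene ID, already whole (rounding changed 0 values), in 1 column per library. Per the labels' protocols, Trizol-extracted total RNA was made into ScriptSeq complete Gold libraries and read at 75 bp on an Illumina NextSeq instrument. RSEM 1.2.3, edgeR and hg19 are named in the submitters' processing notes, with no roles given. RSEM divides ambiguous reads by a model.

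Counts were scaled by TMM and tested over all genes with edgeR 4.0.16 (R 4.3.3), filterByExpr at its defaults and the quasi-likelihood F test. P-values were adjusted by the Benjamini-Hochberg method, at a threshold of 0.05. There was 1 residual degree of freedom from the 3 libraries, moderated with a prior of 18.9. SE were derived from the F statistic. Changes by hairpin are log2 CPM differences with a prior count of 2. The test was tested on simulated data. Intervals for counts are exact Poisson and for ratios exact binomial, at 95%. Positions, exon lengths, GC content (known for 97.2% of tested genes) and shared sequence came from GENCODE 29 (GRCh38), in which 52301 of 57736 IDs were found; names came from the gene name table. Alternatives were DESeq2 size factors, library size alone, no filter, only genes with mean counts of 50 or more, the Wald test of DESeq2 1.42.0, a GC trend removed by lowess, each hairpin alone, and the longest transcript as length.

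Some genes of the lists are not reported here. The members and gene lists were chosen with earlier results of these data known. Genes named were the members, all tested window genes, up to 2 rising and 2 falling genes of each list, HDAC2 and CDKN1A. The 5 genes nearest to CPA4 were also named, leaving out unnamed clones. Other genes named were chosen after their values were seen.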

Additional observations from a re-analysis of the deposited data

How the results depend on the processing

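No paired analysis was possible because WT has 1 library and shares no more than 1 replicate number with the knockdown. The log2 change of CPA4 was positive under all alternatives run. From each hairpin alone it was 1.77 to 2.62, that of CEP41 −0.12 to 0.16, MEST −0.98 to −0.59 and COPG2 0.11 to 0.15. COPG2 changed by 0.17 with library size alone and 0.03 with the GC trend removed. CEP41 changed by −0.11 with the GC trend removed. The count over all genes was 0 with no filter (2486 at an unadjusted p below 0.05), 306 with DESeq2's Wald test and 614 with the GC trend removed, so with no filter 0 genes passed in any list. Calls among window genes numbered 0 with DESeq2's Wald test and 1 with the GC trend removed, and Joubert genes 0 and 1 in the same settings. Library size alone gave 2 calls among imprinted genes. Calls among inhibitor-induced genes numbered 1 with DESeq2 size factors, with a mean count of at least 50 and with DESeq2's Wald test. Per kb of longest transcript, the knockdown means were 3.14 for CPA4, 0.863 for CEP41, 0.297 for MEST and 7.43 for COPG2, against 2.23, 0.447, 0.155 and 5.63 per kb of exon. The cause of these shifts was not tested. MEST was not tested at a mean count of at least 50. DESeq2 gave no adjusted p for CPA4, CEP41 and MEST. The 17 and 14 WT counts of CPA4 and MEST limit the precision of their folds.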
